A study of Caenorhabditis elegans with 16 samples.

Results

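28 genes without a gene name carried more RNA in wild-type *Caenorhabditis elegans* after tunicamycin (TM), a drug that stresses the endoplasmic reticulum (ER). The expression table, as used here, lists 8347 genes, and 4240 of them appear under a cosmid sequence name such as F41B4.3, which says where the gene was first sequenced and nothing of what it does. These names end at F45H11.8 in alphabetical order, and unnamed genes with later names were not analysed here. The 28 and every count of unnamed genes therefore cover only that stretch of names. Some named genes were not in the table as used here either, so shares over all genes tested cover only the genes in it. The 28 genes were selected by their values in the wild-type (WT) libraries. Averaged over all libraries, a gene had to exceed the table's lowest value by 1 log2 unit or more, which left 4115 genes in all and 1773 unnamed ones. The mean of the TM libraries had to exceed that of the vehicle libraries by at least 0.2, and the lowest TM library had to exceed the highest vehicle library. Over all genes tested, named ones included, 1.77% met these conditions. C14B9.2, a gene of the protein disulfide isomerase family, was left out by the rule although its table name has the same form. Since WT values chose the genes, what they did in WT animals is given as a description. The test falls on the *osm-3* mutants, whose libraries took no part in the choice beyond the filter on the mean. Its spread was estimated over all 16 libraries, so WT values still enter its SE and p. A fit of the mutant libraries alone is given as an alternative.

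RNA had been sequenced from whole day 1 adults in 4 groups of 4 replicates, WT animals (N2) and *osm-3(dh441)IV* mutants, each after 6 hr on vehicle plates or on plates with 10 µg/mL TM. All animals came from larvae synchronised by hatching and were grown to adulthood before treatment. *osm-3* encodes a kinesin motor of intraflagellar transport, and dh441, the 1 allele used here, carries a premature stop that leaves amphid neurons unable to fill with dye. The allele is present in every cell of the animal, and the study had isolated it in a screen for TM resistance.

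TM blocks the first step of N-linked glycosylation, so that newly made secretory proteins misfold in the ER. The unfolded protein response senses this through IRE-1, PEK-1 and ATF-6 and raises chaperones such as HSP-4, the worm BiP, together with disulfide isomerases, degradation factors and lipid synthesis genes. Of the 28 genes, 4 have since received a symbol in Ensembl annotation 115: C52A10.1 is *cest-32*, a carboxylesterase domain gene, C34C12.4 is *smim-14*, a small integral membrane protein, C04F12.1 is *vsra-1*, an Argonaute, and F09E8.2 is *crld-1*, an ER protein of the CRELD family needed for the making of acetylcholine receptors. For the other 24 no function is given here.

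Libraries held 4173301 to 8144875 reads on the named and unnamed genes of the table as used here, which may be only part of each library. Shares of reads given below for marker genes are of these totals. Values are on a log2 scale on which 0 reads stand at 6.68, so a difference between weakly expressed genes is smaller than the fold in normalised reads, and both are given. TM replicate 4 of the *osm-3* mutants stood apart from its group: the SD of its deviations from the group mean over all genes tested was 0.253, against 0.081 to 0.194 in the other libraries, and its median deviation over the 28 genes was -0.15. The transcript of *osm-3* itself was not analysed here, so the genotype labels were not checked against it. The study calls its replicates biological, but nothing says whether they came from separate cultures, so p-values measure the spread between these samples, which may be technical.

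The rule has sharp edges. C34F11.8, F13E6.1 and C04F12.8 lay just inside the minimum difference, at 0.21, 0.22 and 0.24, while C01C10.2, C55B7.3 and F02C12.1 lay just outside at 0.198, 0.19 and 0.184. For the separation of the groups, C18B2.4 passed with its lowest TM library 0.0041 above its highest vehicle library, F13E6.1 with 0.0115 and B0507.2 with 0.0137, and C29F3.7, C34F6.7 and F16B4.2 missed with gaps of -0.003, -0.0043 and -0.0045. On the filter, C49G7.7, C16D2.1 and E03H4.8 stood 1.02, 1.32 and 1.41 above the lowest value, and F10C2.3, B0507.10 and C45E1.4 stood below the limit at 0.956, 0.946 and 0.919. B0507.10 differed by 0.94 in WT animals and was left out for its low level alone. Among the 2467 unnamed genes under the filter, 31 met the other conditions.

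F41B4.3, a gene of 134 codons and 4 exons on chromosome X (6835491 to 6836115, minus strand, WBcel235), had the largest WT difference of the 28. Its log2 values in WT animals were 7.99, 7.83, 7.88 and 7.65 under vehicle and 9.12, 9.12, 9.31 and 8.95 under TM, which in reads is 48 to 103 against 326 to 503, and 5.28-fold in mean normalised reads. All 4 TM libraries sat more than 0.9 above every vehicle library. In *osm-3* mutants the values were 7.79, 7.67, 7.77 and 7.66 under vehicle and 7.995, 8.06, 7.91 and 7.77 under TM, a difference of 0.21 ± 0.087 (SE, n = 4 per group) and 1.49-fold in normalised reads. The unadjusted p was 0.0246 in limma. The mutant libraries overlapped between treatments, and none of the mutant TM libraries reached the WT TM libraries.

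C52A10.1 (*cest-32*, 545 codons, chromosome V, 5230475 to 5233891, minus strand) followed. WT vehicle libraries read 9.44, 9.34, 9.61 and 8.91 and WT TM libraries 10.11, 10.30, 10.21 and 9.88, 2.01-fold in normalised reads. The vehicle group was wide, with replicate 4 the lowest. Means of the *osm-3* mutants stood between the WT means, at 9.74, 9.92, 9.69 and 9.63 under vehicle and 9.97, 10.00, 10.29 and 9.89 under TM. All 4 mutant vehicle libraries were above all 4 WT vehicle libraries, and the mutant difference was 0.29 ± 0.132, with unadjusted p = 0.0385 in limma.

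C34C12.4 (*smim-14*, 101 codons, chromosome III, 3467664 to 3469746, minus strand) gave 8.34, 8.50, 8.50 and 8.51 in WT vehicle libraries and 9.32, 9.16, 9.38 and 9.14 in WT TM libraries, 2.37-fold in normalised reads. No library came near those of the other treatment. Mutant values of 8.49, 8.55, 8.45 and 8.38 under vehicle and 8.61, 8.65, 8.60 and 8.47 under TM overlapped, with a difference of 0.12 ± 0.071 (unadjusted p = 0.125 in limma). The mutant started from the WT vehicle level, with a genotype difference of 0.00 ± 0.071 under vehicle, and fell short of WT by 0.67 under TM.

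F43H9.4 (297 codons, chromosome V, 8026708 to 8028789, plus strand) had the largest difference of the 28 in *osm-3* mutants. WT values were 9.03, 8.95, 8.89 and 8.92 under vehicle and 9.30, 9.66, 10.02 and 9.79 under TM, 2.09-fold in normalised reads. In the mutants they were 8.65, 8.84, 8.67 and 8.32 under vehicle and 9.30, 9.08, 9.22 and 8.78 under TM, a difference of 0.48 ± 0.138 and 1.68-fold, and each mutant TM library exceeded the vehicle library of its number, by 0.24 to 0.65. The unadjusted p was 0.00289 and the adjusted p 0.362 (limma, adjusted over all 4115 genes). Mutant vehicle libraries lay below all WT vehicle libraries, by 0.33 in the mean.

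C06B3.7 (303 codons, chromosome V, 13909686 to 13911585, plus strand) rested on few reads, from 33 to 80 in WT vehicle libraries. Its values were 7.84, 7.84, 7.76 and 7.49 there and 8.79, 8.33, 8.63 and 7.99 under TM, 3.06-fold in normalised reads. Mutants gave 8.42, 8.41, 8.10 and 7.98 under vehicle and 8.55, 8.72, 9.04 and 8.20 under TM, a difference of 0.40 ± 0.174 of which replicate 3 contributed the most (0.95 within the pair). The unadjusted p was 0.0335 in limma. Mutant vehicle libraries were all above the WT vehicle libraries, and the WT TM and mutant groups overlapped. The neighbouring unnamed gene C06B3.6, 718 bases away on the other strand, differed by 0.42 in WT animals with overlapping groups and was no member.

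C18B2.4 (296 codons, chromosome X, 3604291 to 3605741, minus strand) read 9.23, 9.35, 9.73 and 9.13 in WT vehicle libraries and 10.20, 10.02, 10.14 and 9.74 under TM, 1.79-fold in normalised reads. Only 0.0041 separated its groups, between vehicle replicate 3 and TM replicate 4. Mutant values were 9.35, 9.68, 9.54 and 9.54 under vehicle and 9.70, 9.30, 10.08 and 9.70 under TM, and the sign of the pair difference varied: replicate 2 was lower under TM by 0.37 and replicate 3 higher by 0.54. The mean difference of 0.17 ± 0.151 was within that spread (unadjusted p = 0.282 in limma).

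C49G7.7 (303 codons, chromosome V, 4034476 to 4036025, plus strand) was the weakest of the leading genes, with 3 to 28 reads in WT vehicle libraries and 42 to 109 in WT TM libraries, or 7.21, 7.41, 7.32 and 6.92 against 7.86, 7.84, 8.03 and 7.57 on the log2 scale and 4.35-fold in normalised reads. C49G7.7 lies 85 bases from C49G7.13 on the same strand, which differed by -0.01 in WT animals. C49G7.7 also lies 1029 bases from *cyp-35A4*, a cytochrome P450 gene that was not tested. In the mutants it stood at 7.70, 7.91, 7.63 and 7.52 under vehicle and 7.93, 8.13, 8.31 and 7.87 under TM, with 27 to 96 and 70 to 109 reads. Every mutant vehicle library was above every WT vehicle library, and the mutant TM libraries were higher than their pairs in 4 of 4, by 0.22 to 0.68. The difference was 0.37 ± 0.121, given without a test: C49G7.7 passed the filter on the mean only through the mutant TM group, as its mean over the other 12 libraries was 0.900 above the table's lowest value, below the limit of 1. It was the 1 gene of the 28 of which this held.

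**Figure D1:**
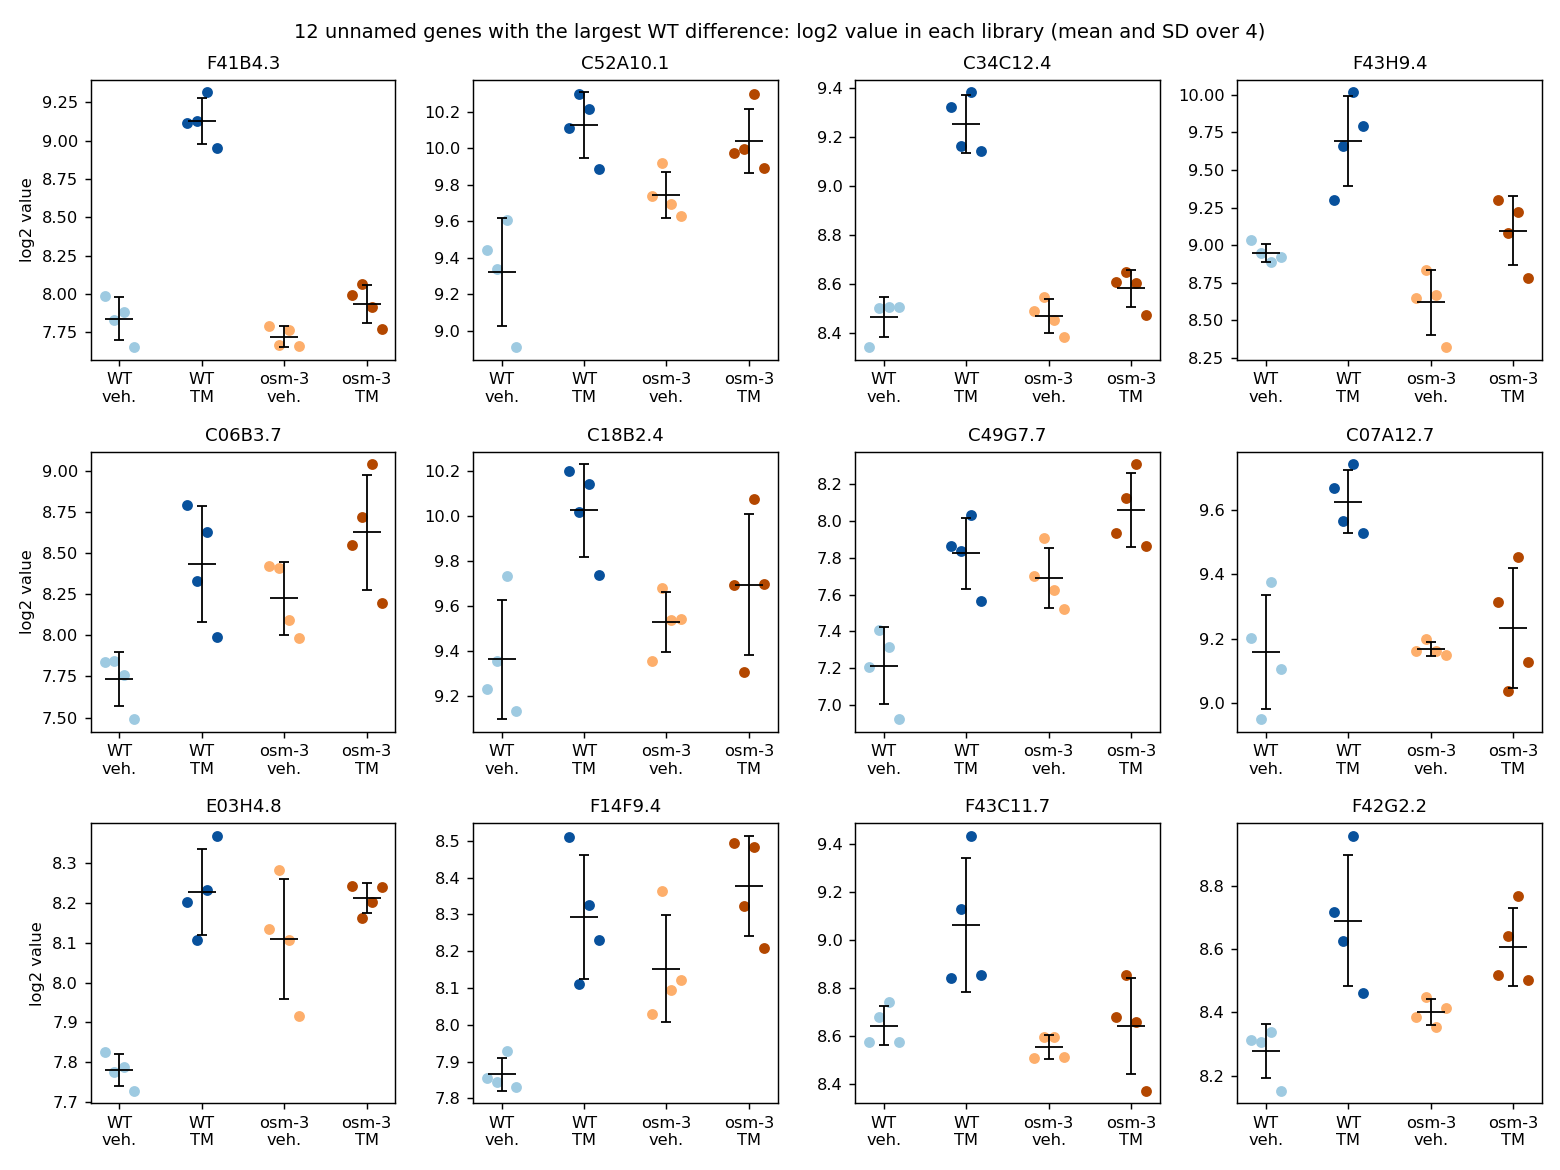
log2 value (y axis, each panel on its own scale) of the 12 unnamed genes with the largest WT difference in each of the 16 libraries. Points are libraries in replicate order, and bars are the mean and SD over 4, for WT vehicle, WT TM, *osm-3* vehicle and *osm-3* TM from left to right. F41B4.3 and C34C12.4 were high in the WT TM group alone, while C06B3.7 and C49G7.7 were higher in all mutant libraries than in all WT vehicle libraries.

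The next 5 genes by WT difference were C07A12.7, E03H4.8, F14F9.4, F43C11.7 and F42G2.2. C07A12.7 (437 codons, 5 transcripts, chromosome X, 4517739 to 4522144, minus strand) read 9.202, 8.95, 9.38 and 9.10 in WT vehicle libraries, 9.67, 9.57, 9.74 and 9.53 under TM, 9.16, 9.199, 9.16 and 9.15 in mutant vehicle libraries and 9.31, 9.04, 9.45 and 9.13 in mutant TM libraries. The mutant difference was 0.07 ± 0.097 and changed sign among the pairs. C07A12.7 lies 2010 bases from *pdi-2*, a disulfide isomerase gene on the other strand. *pdi-2* was itself 0.77 higher under TM in WT animals with separate groups, and 0.07 ± 0.125 in mutants. The nearer neighbour *spr-3*, 843 bases away and also on the other strand, differed by 0.03 in WT animals.

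E03H4.8 (368 codons, chromosome I) gave 7.83, 7.78, 7.79 and 7.73 under vehicle and 8.20, 8.11, 8.23 and 8.37 under TM in WT animals. In mutants the values were 8.13, 8.28, 8.11 and 7.92 under vehicle and 8.24, 8.16, 8.20 and 8.24 under TM. Mutants on vehicle were already above WT on vehicle in every library, and their TM mean differed from that of WT by -0.02 ± 0.073. F14F9.4 (918 codons, chromosome V) followed the same layout, with WT values of 7.86, 7.84, 7.93 and 7.83 under vehicle and 8.51, 8.11, 8.32 and 8.23 under TM. The mutants read 8.03, 8.36, 8.10 and 8.12 under vehicle and 8.49, 8.32, 8.48 and 8.21 under TM, and TM minus vehicle was 0.22 ± 0.091 (unadjusted p = 0.0241 in limma) and positive in 3 of 4 pairs.

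F43C11.7 (295 codons, chromosome II) stood at 8.57, 8.68, 8.74 and 8.57 under vehicle and 8.84, 9.13, 9.43 and 8.85 under TM in WT animals, with replicates 2 and 3 the highest under TM. Mutant values of 8.51, 8.60, 8.60 and 8.51 under vehicle and 8.68, 8.86, 8.66 and 8.37 under TM differed in the mean by 0.09 ± 0.116. F42G2.2 (647 codons, chromosome II) gave 8.31, 8.31, 8.34 and 8.15 under vehicle and 8.72, 8.63, 8.96 and 8.46 under TM in WT animals. Mutant libraries read 8.38, 8.45, 8.36 and 8.41 under vehicle and 8.52, 8.64, 8.77 and 8.50 under TM, a mutant difference of 0.21 ± 0.090 (unadjusted p = 0.0344 in limma). It was the 1 gene of the 28 whose mutant groups did not overlap, against 1.75% of all genes tested that lay apart and higher in this comparison.

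The remaining 16 genes differed by 0.21 to 0.40 in WT animals. F37C4.5 on chromosome IV was the most abundant of the 28, with 2448 to 2968 reads in WT vehicle libraries, 3646 to 4263 under TM, and 1999 to 4477 in mutants. Per kilobase of exon it held 1802 normalised reads in the mean over all libraries, and F14F9.4, the lowest, 43.3, around a median of 203.1 for the 28 genes and 352.0 for all genes tested that were matched to the annotation. F09E8.2 (*crld-1*, chromosome IV) read 10.43, 10.52, 10.46 and 10.46 under vehicle and 10.71, 10.79, 10.82 and 10.59 under TM in WT animals. Its mutant values were 10.34, 10.36, 10.22 and 10.35 under vehicle and 10.34, 10.39, 10.32 and 10.34 under TM. The mutants stood below WT animals in every library of the same treatment, and their difference between treatments was 0.03 ± 0.072.

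4 of the 28 genes had a lower mean under TM in the mutants, and none of these passed the test. C04F12.1 (*vsra-1*, 944 codons, chromosome I) read 9.96, 9.84, 9.84 and 9.91 under vehicle and 10.42, 10.17, 10.19 and 10.29 under TM in WT animals. In mutants it read 9.79, 9.57, 9.76 and 9.87 under vehicle and 9.67, 9.34, 9.46 and 9.84 under TM, and TM was lower in 4 of 4 pairs, by 0.03 to 0.31. The mean mutant difference was -0.17 ± 0.101 (unadjusted p = 0.105, adjusted p = 0.3845 in limma). F20D1.3 (463 codons, chromosome X) was lower by 0.16 ± 0.114 in the mean, with replicate 2 far below the rest at 9.35. C36B7.6 and C04F12.8 differed by -0.07 ± 0.095 and -0.03 ± 0.086.

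C33A12.19 (121 codons, chromosome IV, 9516999 to 9518434, plus strand) was the 1 gene whose mutant difference exceeded that in WT animals. WT values were 8.38, 8.46, 8.58 and 8.47 under vehicle and 8.70, 8.60, 8.99 and 8.65 under TM. Mutants gave 8.26, 8.22, 8.14 and 7.76 under vehicle and 8.55, 8.60, 8.48 and 8.16 under TM, starting below WT in every vehicle library and differing by 0.35 ± 0.116, with pair differences of 0.29 to 0.41. F25E5.5 (409 codons, chromosome V, 7447265 to 7449080, plus strand) differed by 0.29 in WT animals and by 0.24 ± 0.084 in mutants, where it read 8.21, 8.42, 8.31 and 8.05 under vehicle and 8.50, 8.45, 8.68 and 8.34 under TM. C34F11.8, at the edge of the rule, differed by 0.21 and 0.20 ± 0.096.

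The question put to the *osm-3* mutants was whether genes chosen in WT animals also carried more RNA under TM there. Of the 28 genes, 24 (23 of 27 without C49G7.7) had a higher mean under TM, where 41.8% of all genes tested did, and their median difference was 0.11 against -0.04 over all genes tested. Folds in normalised reads ran from 0.864 to 1.92 (C49G7.7) with a median of 1.15, and the next highest was 1.705 (C06B3.7). In WT animals they ran from 1.20 to 5.28 with a median of 1.51. The mutant difference was smaller than that in WT animals for 27 of the 28, which a choice by the WT difference favours, while it was smaller for 62.55% of all genes tested and for 93.33% of the named genes that met the same values. It was more than 0.5 times as large for 8 of the 28. For those named genes, 45 in number, the median mutant difference was 0.14, and 36 had a higher mean.

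No single gene of the 28 passed an adjusted p of 0.05 in limma over all genes tested, where 3 of 4115 (0.0729%) did, and the lowest adjusted p was 0.362. At an unadjusted p of 0.05 in limma, 8 of the 27 genes without C49G7.7 were higher and 0 lower. Of all 4115 genes tested, 171 (4.16%) were higher and 322 lower at that p. The 8 were F43H9.4, C33A12.19, F25E5.5, F14F9.4, F41B4.3, C06B3.7, F42G2.2 and C52A10.1, and C49G7.7 was left out for its passage of the filter. Where the filter was set by the 8 WT libraries alone, an alternative chosen after seeing the data, 0 of the 27 passed and 9 were higher at an unadjusted p of 0.05. With limma voom on the reads 0 of the 27 passed and 7 were higher at an unadjusted p of 0.05. With limma on the 8 mutant libraries alone, where the WT spread does not enter, 0 of the 27 passed and 8 were higher at that unadjusted p.

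Libraries of the same replicate number deviated together, though some of different numbers did so as strongly, and a fit was also made with the replicate number as a block within each genotype. In that fit, 5 of the 28 passed in *osm-3* mutants, and without C49G7.7 4 of 27 rose: C33A12.19 (adjusted p = 0.00864), F43H9.4 (0.0237), F25E5.5 (0.0396) and C06B3.7 (0.0488). Of all genes tested 360 passed, 130 higher and 230 lower. Over all alternatives the adjusted p ran from 0.007525 to 0.834 for C33A12.19, and from 0.000195 for F43H9.4, 0.00557 for F25E5.5 and 0.0364 for C06B3.7 to the same highest value. The same 4 rose in the fit with blocks within genotype and the filter set by the WT libraries alone. With 1 block shared by both genotypes 0 of the 27 and 39 of all genes passed. Without the mutant TM replicate 4 that stood apart, 7 of the 27 rose, the same 4 and F41B4.3, F14F9.4 and C34F11.8, and 793 of all genes passed, 154 higher and 639 lower. With a weight per library 11 of the 27 rose, and 1423 of all genes passed, 512 higher and 911 lower. That fit leaned on replicate 1 of the mutants. Its weights for mutant replicates 1 to 4 were 5.11, 0.77, 1.65 and 0.66 under vehicle and 4.88, 0.38, 0.38 and 0.25 under TM.

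Pair by pair, 12 of the 28 genes (11 of 27 without C49G7.7) were higher under TM in 4 of 4 mutant pairs, where 13.9% of all genes tested were. By replicate number, 26, 18, 22 and 21 of the 28 were higher in pairs 1 to 4. Of all genes tested, 44.93%, 42.02%, 40.56% and 42.45% were. Median differences of the 28 were 0.17, 0.08, 0.15 and 0.09, against -0.03, -0.04, -0.07 and -0.02 over all genes tested. C49G7.7 was among the higher genes in every pair. Each pair had most of these genes on the higher side, and pair 2 the fewest. WT and mutant libraries were not wholly separate: deviations of the same-numbered libraries of the 2 genotypes correlated at 0.18 to 0.50 under vehicle and at -0.04 to 0.64 under TM over genes, and the part of this in the shared direction was not tested.

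**Figure D2:**
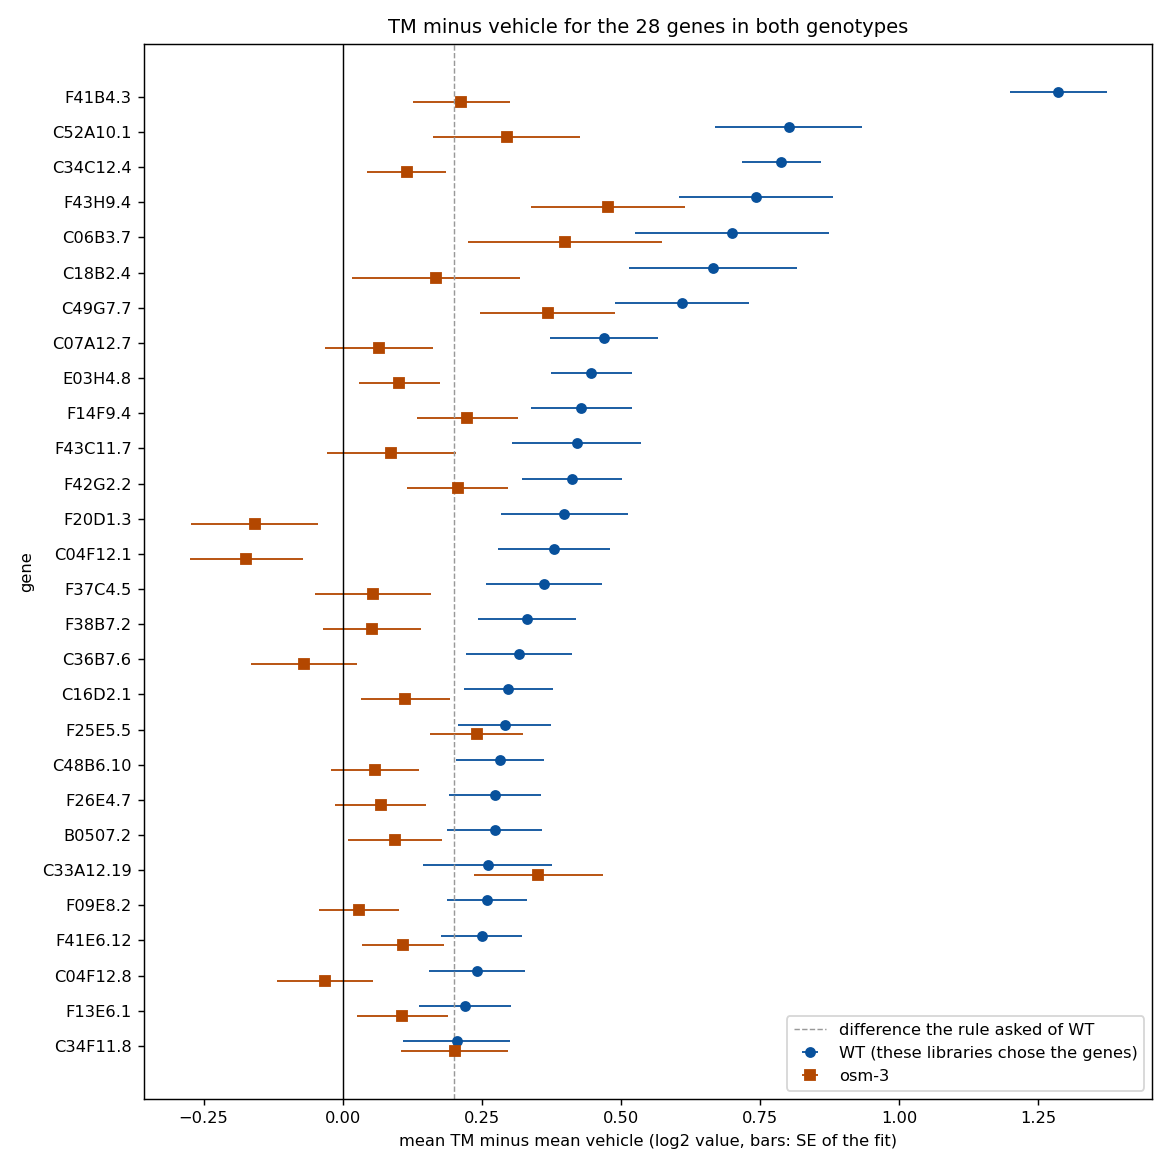
TM minus vehicle in WT animals (circles) and *osm-3* mutants (squares) for the 28 genes, as the difference of group means on the log2 scale (x axis) with the SE of the fit, ordered by the WT difference. WT values lie at or above 0.2 by the rule, mutant values run from -0.17 to 0.48, and C33A12.19 is the 1 gene with the larger difference in mutants.

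Across the 28 genes the WT and mutant differences ranked alike to some extent, with Spearman's rho of 0.40 over 28 genes measured in the same libraries, a description without a test. C33A12.19 departed from this order, at rank 23 by the WT and rank 4 by the mutant difference, and so did C04F12.1 (14 and 28) and F20D1.3 (13 and 27). F41B4.3, at rank 1 in WT animals, was at rank 8 in mutants.

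**Figure D3:**
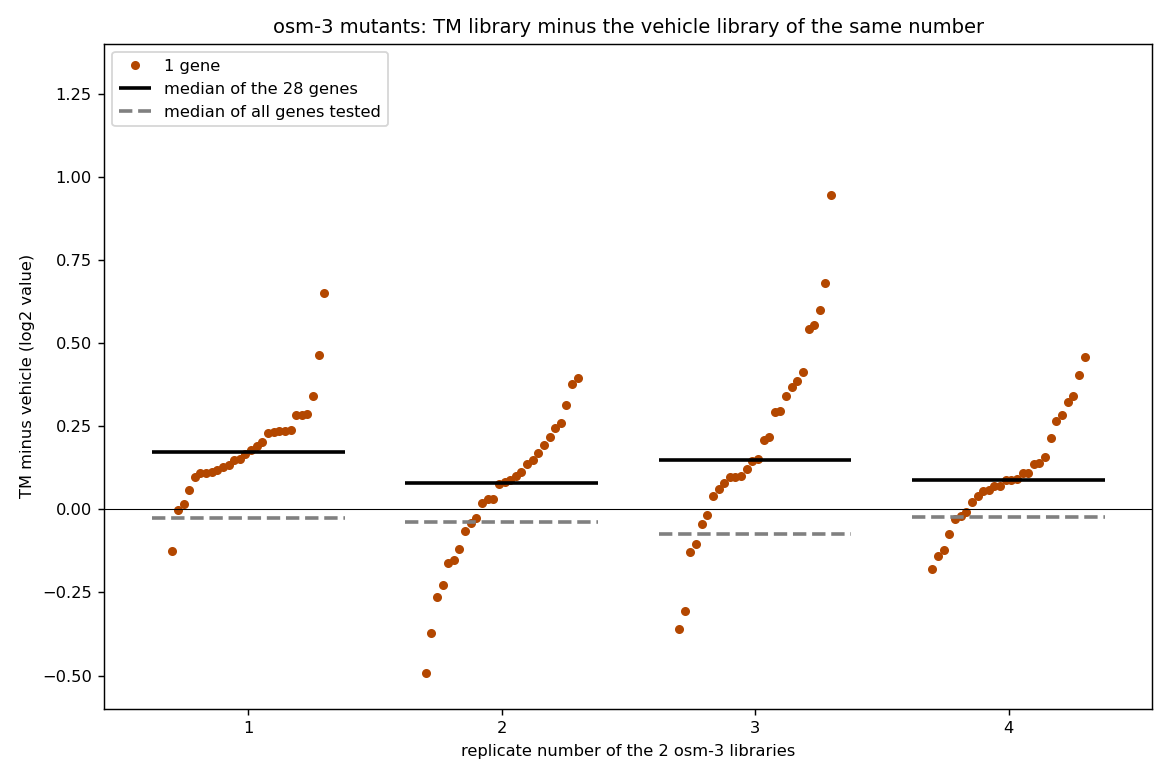
TM library minus vehicle library of the same replicate number in *osm-3* mutants (y axis, log2 scale) for the 28 genes, sorted within each pair (x axis). Solid lines are the median of the 28 genes and dashed lines that of all genes tested. The solid line is above 0 and the dashed line below 0 in all 4 pairs.

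The genotypes were set side by side next, as a description, since the WT libraries had chosen the genes and a choice of low WT vehicle and high WT TM libraries favours higher mutant values under vehicle and lower ones under TM. Under vehicle, 11 of the 28 genes were higher in all 4 mutant libraries than in all 4 WT libraries (9.26% of all genes tested were) and 3 were lower (11% of all). Those lower were F43H9.4, C33A12.19 and F09E8.2. F38B7.2 (228 codons, chromosome V) differed most, with 7.76, 7.72, 7.80 and 7.56 in WT vehicle libraries, 7.99, 8.15, 8.05 and 7.96 under TM, 8.57, 8.48, 8.52 and 8.23 in mutant vehicle libraries and 8.63, 8.59, 8.50 and 8.29 in mutant TM libraries. Its mutant vehicle level was above the WT level reached under TM. F20D1.3 and C04F12.8 also had higher mutant vehicle means, 9.90 and 8.68, than WT TM means, 9.83 and 8.51. Unlike for F38B7.2, the libraries of these groups overlapped.

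Under TM, where the choice of genes favours lower mutant values, 8 of the 28 were lower in all mutant libraries than in all WT libraries (8.53% of all genes tested were), and 1, F38B7.2, was higher (7.53% of all). The 8 were F41B4.3, C34C12.4, F43H9.4, C07A12.7, C04F12.1, C36B7.6, C48B6.10 and F09E8.2, with mutant minus WT of -0.25 for C48B6.10 to -1.19 for F41B4.3. Other genes of the 28 reached like levels in both genotypes under TM from unlike levels under vehicle: C52A10.1 differed by 0.42 ± 0.132 under vehicle and -0.09 ± 0.132 under TM, F20D1.3 by 0.47 ± 0.114 and -0.09 ± 0.114, and E03H4.8 by 0.33 ± 0.073 and -0.02 ± 0.073. The difference of responses, mutant minus WT, was negative for 27 of 28 (62.55% of all genes tested and 58.09% of unnamed ones, with the WT response part of the choice) and largest for F41B4.3 (-1.07 ± 0.123), C34C12.4 (-0.67 ± 0.101), F20D1.3 (-0.56 ± 0.161) and C04F12.1 (-0.55 ± 0.143).

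**Figure D4:**
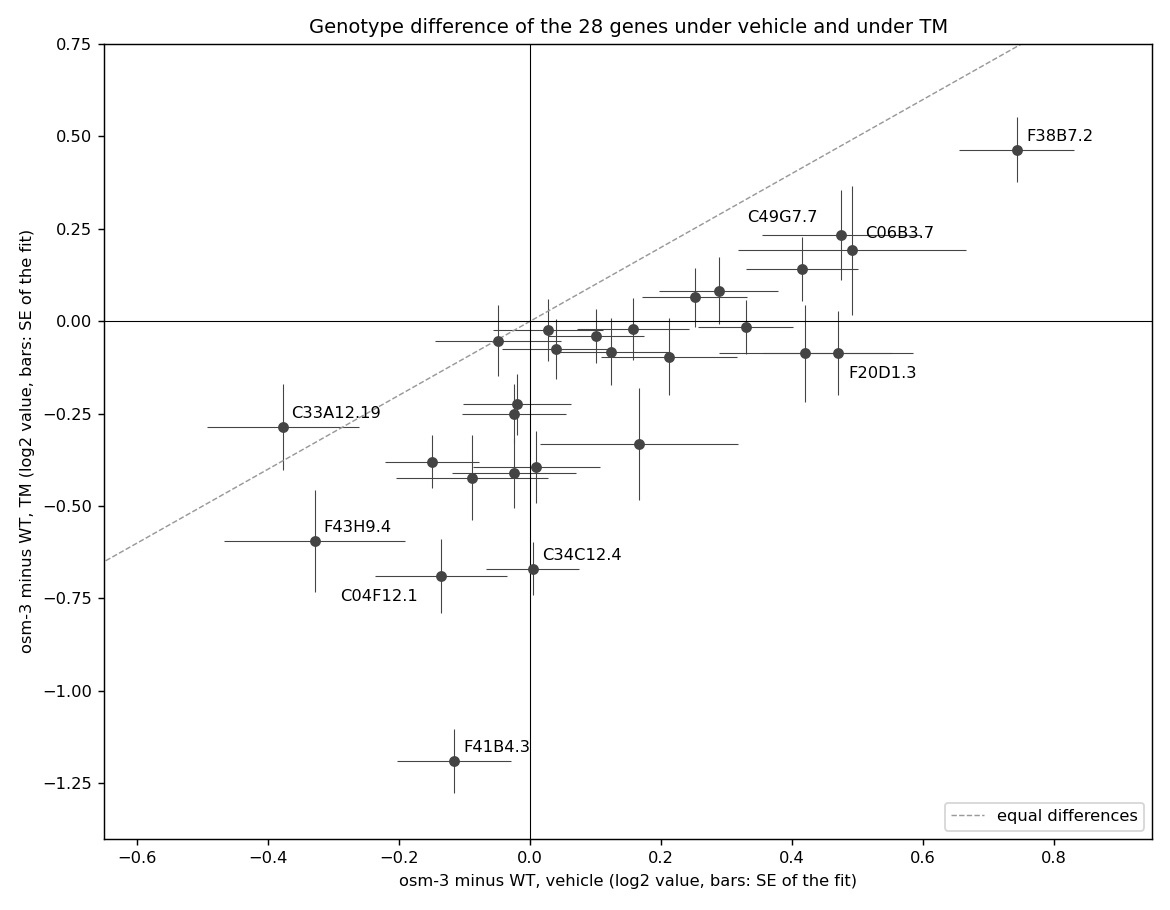
*osm-3* minus WT under vehicle (x axis) and under TM (y axis) for the 28 genes, as differences of group means on the log2 scale with the SE of the fit. Points below the dashed line of equal differences had a smaller response in mutants, which holds for all but C33A12.19. F41B4.3 and C34C12.4 differ under TM and not by more than 0.12 under vehicle, and F38B7.2 differs under both.

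In the genome all 28 genes are protein coding. Some lie near each other, such as C04F12.1 (9673664 to 9678557) and C04F12.8 (9697237 to 9699566) on chromosome I. Chromosome V held 9 of them (19.8% of unnamed genes tested with an annotation lie there), X 6 (16%), I 5 (14.9%), II 4 (20.4%), IV 3 (15.0%) and III 1 (13.9%), and no gene of the 28 was the next gene of another, in a set that holds only names up to F45. They had 2 to 14 exons and 61 to 944 codons, with medians of 5 exons and 303.5 codons, against 5 and 330.0 for unnamed protein-coding genes tested and 6 and 393.0 for all protein-coding genes tested. B0507.2 and C16D2.1 overlap a gene on the same strand, B0507.1 and *jun-1*, so their reads may be shared. 7 others overlap a gene on the opposite strand only, and of the 3 such partners that were tested, C18B2.3, *ampd-1* and F37C4.4, none was higher with separate groups in WT animals. Many of the 56 nearest neighbours were not tested. Among those that were, *pdi-2* was the 1 gene with separate groups and a higher level under TM in WT animals. Over all genes tested, 1.77% were higher by at least 0.2 with separate groups.

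The ER genes around which this response is known were set beside the 28, from 34 listed folding, unfolded protein response and degradation genes. Of these, 17 were in the table as used here, and all 17 were tested. The rest, *xbp-1* and *pek-1* among them, were not analysed. In WT animals 7 of the 17 rose (1.56% of all genes tested passed in either direction): *ckb-2*, a choline kinase (2.63), *pdi-6* (1.11), C14B9.2 (1.02), *hsp-4* (1.02), the co-chaperone *dnj-7* (0.84), *pdi-2* (0.77) and *hsp-3* (0.72). F41B4.3 at 1.29 lay above all of these but *ckb-2* on the same scale. In the mutants limma called 0 of these 17, 4 were higher at an unadjusted p of 0.05 and the median was -0.04. The 4 were *ckb-2* (0.49 ± 0.118), *dnj-7* (0.30 ± 0.080), *pdi-6* (0.28 ± 0.090) and C14B9.2 (0.22 ± 0.074). The mutant differences of F43H9.4, C06B3.7 and C33A12.19, 0.35 to 0.48, lay below that of *ckb-2* and above those of *dnj-7*, *pdi-6* and C14B9.2. Both groups were picked by their mutant values. Of the ER genes that rose in WT animals, *hsp-4*, *pdi-2* and *hsp-3* differed by 0.12 ± 0.132, 0.07 ± 0.125 and 0.02 ± 0.133 in mutants. Of 28 listed N-glycosylation genes 6 were in the table as used here, and all 6 were tested. *gale-1*, a sugar epimerase, rose in WT animals by 1.82 and differed by 0.29 ± 0.097 in mutants (adjusted p = 0.362 in limma). In mutants 0 of the 6 passed, 2 had a higher mean and the median was -0.11, and *gfat-1*, a hexosamine pathway enzyme, differed by -0.43 ± 0.204 (unadjusted p = 0.0488 in limma) and its paralogue *gfat-2* by -0.33 ± 0.175.

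Whole worms mix tissues, and fewer cells of a type and less RNA per cell cannot be told apart in them. Of the marker lists, only that of epidermis and cuticle held genes that passed. Over all 4115 genes tested, 1.56% passed in WT animals in either direction, and 3 genes did in mutants. In mutants 41.8% of all genes had a higher mean. At an unadjusted p of 0.05 in limma, 171 (4.16%) were higher and 322 lower there. Of 48 epidermal and cuticle genes tested, mostly collagens, 5 passed lower and 0 higher in WT animals under TM with a median of -0.30, and in mutants 0 passed, 36 had a higher mean and 17 were higher at an unadjusted p of 0.05 in limma, with a median of 0.21. Their summed share of reads was 7.77% to 9.83% in WT vehicle libraries, 5.68% to 8.36% in WT TM libraries, 9.98% to 11.8% in mutant vehicle libraries and 9.88% to 13.7% in mutant TM libraries. Of 11 sperm genes tested 0 passed, at an unadjusted p of 0.05 as well, and their summed share was 0.0177% to 0.0242%, 0.0165% to 0.0227%, 0.0588% to 0.0900% and 0.0508% to 0.108% in the same order of groups. Of 10 germline and oocyte genes tested 0 passed and 4 were lower in mutants at an unadjusted p of 0.05, with medians of -0.13 in WT animals and -0.39 in mutants and summed shares of 0.893% to 1.21%, 0.894% to 1.32%, 0.990% to 1.34% and 0.726% to 1.37%. Intestinal genes (6 tested, 5.47% to 6.44%, 4.12% to 6.14%, 4.53% to 5.96% and 2.78% to 5.68%), muscle genes (3 tested, 0.208% to 0.316%, 0.153% to 0.303%, 0.312% to 0.428% and 0.195% to 0.348%) and neuronal genes (6 tested, 0.0384% to 0.0414%, 0.0357% to 0.0457%, 0.0464% to 0.0541% and 0.0459% to 0.0550%) had none passing in either genotype. At an unadjusted p of 0.05, 1 intestinal gene was lower in mutants, 1 muscle gene was lower in each genotype and no neuronal gene differed (limma). No listed marker in the table as used here was at 0 in all libraries. The part of these shifts in the values of the 28 genes was not tested.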

How the data were processed

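The 16 libraries were stranded, paired-end and depleted of ribosomal RNA. Using kallisto 0.43.0-1 in strand-specific mode, the authors assigned reads to the cDNA of Ensembl release 94 (WBcel235), summed them per gene and deposited variance-stabilised values on the log2 scale, computed with DESeq2 1.16.1. Their 4 tables of fold changes and p-values were not used. The transformation was inverted here: 100% of values came out within 0.01 of a whole read (largest distance 3e-08). 1 entry without a gene name held 0.177% to 0.531% of the reads in the table as used here and was left out. 98.59% of the genes tested were matched to Ensembl annotation 115 on the same build. Sequences of promoters and proteins were not analysed here.

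Differences were tested on the log2 values with limma 3.58.1 in R 4.3.3 (eBayes with trend, 4 group means over 16 libraries, 4115 genes, two-sided, Benjamini-Hochberg over all genes tested, threshold 0.05), a script tested on simulated data. TM minus vehicle in *osm-3* mutants was tested. The other differences share WT libraries with the choice of genes and are given without a test. Same-numbered vehicle and TM libraries deviated together from their group means (correlations over genes of 0.45, 0.25, 0.58 and 0.50 in WT animals, and 0.33, 0.36, 0.36 and 0.86 in mutants), so the number was taken to pair them, which no label states. Libraries of different numbers reached 0.56 (vehicle 2 with TM 3, mutants) and 0.47 (vehicle 3 with TM 2, WT). These lay above the same-number values of pairs 1, 2 and 3 in mutants and of pairs 1 and 2 in WT animals.

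Given in every library are the 12 genes with the largest WT difference, and named are those past the threshold in mutants, the 3 largest and 3 smallest mutant differences, the 3 genes nearest to each edge of the rule, neighbours, and genes with an annotated role. C33A12.19, F25E5.5, F37C4.5, F38B7.2 and C48B6.10 were chosen after their values were seen. The genes, lists and rules were chosen with earlier results of these data known. Alternatives were no filter, a filter at 3, only the genotype's libraries, replicate blocks, eBayes without trend, robust eBayes, library weights, quantile normalisation, median centring, log2 of normalised reads plus 1, limma voom, and leaving out each library. A filter set by the 8 WT libraries alone was added after seeing the data.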

Additional observations from a re-analysis of the deposited data

Results flagged for a closer look

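In 7 of 112 groups of 4 libraries (28 genes in 4 groups), 1 library lay far from the other 3, where chance gives about 1 in 20. Among WT vehicle libraries these were C34C12.4 in replicate 1 (8.34 against 8.50 to 8.51), F42G2.2 in replicate 4 (8.15 against 8.31 to 8.34) and F13E6.1 in replicate 3 (10.03 against 9.79 to 9.82). In *osm-3* vehicle libraries they were F37C4.5 in replicate 3 (11.81 against 11.68 to 11.70), F09E8.2 in replicate 3 (10.22 against 10.34 to 10.36) and F13E6.1 in replicate 4 (9.79 against 9.93 to 9.95). In *osm-3* TM libraries it was F20D1.3 in replicate 2 (9.35 against 9.82 to 9.91).

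C04F12.1 (*vsra-1*) was higher under TM in all WT libraries and lower in 4 of 4 *osm-3* pairs, and its *osm-3* response minus its WT response was -0.55. This difference was not tested, since WT values had chosen the gene.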

How the results depend on the processing

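The direction held in all alternatives: the median of the 28 genes in *osm-3* mutants stayed positive, from 0.04 (filter at 3, which kept 6 of the genes, 4 of them higher) to 0.20 (log2 of normalised reads plus 1). Leaving out 1 library gave medians of 0.07 to 0.16, 23 to 25 higher means, 0 to 8 genes called and 1 to 793 of all genes called. The highest counts came without *osm-3* TM replicate 4, and without each other *osm-3* TM library 1 gene in all was called. The replicate block gave 1 of the 28 and 39 of all genes called, and the replicate block within genotype 5 and 360. Library weights, which counted replicate 1 of each mutant group the most, gave 12 and 1423. These counts include C49G7.7, which passed the filter only through the mutant TM group. With the filter set by the 8 WT libraries alone, chosen after seeing the data, 0 of 27 and 5 of all genes were called (3 higher and 2 lower), and with the replicate block within genotype as well 4 and 370. Of all genes, 3 passed as reported (2 higher and 1 lower), 0 with the filter at 3, 11 with the genotype's libraries alone (8 and 3), 5 with robust eBayes (3 and 2), 6 with quantile normalisation (4 and 2) and 5 with median centring (4 and 1).

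The sign of single differences in mutants reversed 10 times. With library weights F20D1.3, C36B7.6 and C04F12.8 became 0.013, 0.116 and 0.0244. Leaving out 1 library gave -0.0894 to 0.0461 for C04F12.8, -0.0022 to 0.0428 for F09E8.2, -0.0208 to 0.1243 for F38B7.2, -0.1336 to 0.0117 for C36B7.6 and -0.0081 to 0.1308 for C07A12.7. The WT median of 0.37 was 0.60 both with log2 of normalised reads plus 1 and with voom.

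The number of genes that met the rule moved more: 41 at a difference of 0.1, 7 at 0.5, 6 with the filter at 3, 124 without the condition on overlap, and 44 after median centring. Leaving out 1 WT library gave 26 to 93, with 91 without vehicle replicate 3 and 93 without TM replicate 4. The causes were not tested.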
